A study of Homo sapiens with 26 samples.

Results

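The sites described here are the HNF4A peaks of BJ fibroblasts that lay away from transcript starts and outside FOXA1 peaks. They were chosen by the presence of an HNF4A peak, the absence of a FOXA1 peak and the position. They were the peaks of the HNF4A list on chromosomes 1 to 22 whose centre was more than 1000 bp from every transcript start of the GENCODE 44 annotation and that shared no base with a peak of the FOXA1 list. The centre was the summit where it lay inside the peak and the midpoint otherwise. There were 21192 such peaks, or 56.0% of the 37867 HNF4A peaks on these chromosomes (95% Wilson interval 55.5 to 56.5%) and 90.8% of the 23336 HNF4A peaks away from starts. The whole HNF4A list held 38291 peaks. The remaining HNF4A peaks on these chromosomes were 2144 distal peaks that overlapped a FOXA1 peak, 14096 peaks near a start without FOXA1 and 435 near a start with FOXA1. HNF4A signal, FOXA1 absence and distance from starts are therefore given as descriptions.

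HNF4A is a nuclear receptor that binds DNA as a homodimer and is best known as a regulator of liver, kidney and gut epithelium, where it controls lipid, bile acid and clotting genes. Nuclear receptors recognise short half-sites, and HNF4A prefers elements of 2 half-sites in the same orientation with 1 base between them. FOXA1 is a forkhead factor that binds A- and T-rich forkhead motifs and can bind nucleosomal DNA. AP-1 is the family of FOS and JUN dimers, and TEAD proteins are the DNA-binding partners of YAP. Both are abundant at enhancers of fibroblasts.

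The study expressed HALO-tagged proteins in fibroblasts of the BJ line, which derives from human foreskin, and mapped their binding after 48 hours by chromatin immunoprecipitation and sequencing (ChIP-seq) with an antibody to the tag. The 5 constructs used here were HNF4A, wild-type FOXA1 and the FOXA1 variants named dbd, nhaa and rraa, whose changes the labels do not spell out. The labels give each construct 2 ChIP and 2 input libraries among 26 samples, and those of histone H2B are not used here. Every construct was thus an ectopic fusion protein in 1 cell line, and all values are from its single peak list. Replicate error could not be measured, and nothing was tested across libraries. The 95% intervals (Wilson for a share, Newcombe for a difference between shares) cover counting over peaks only. The depth behind a peak is unknown, since a list holds no counts of reads. No expression was measured, so the fibroblast identity of the cells could not be checked against marker genes.

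The sequence of the sites carries the main finding, and 7 sites that hold a marked motif are shown as examples. Each line gives the central 200 bp of 1 site from the GRCh37 (hg19) reference, read 5' to 3'. Capitals mark the AP-1 core TGAGTCA, the HNF4 core CAAAGTCCA with up to 1 mismatch, or 2 copies of AGGTCA in the same orientation with 1 base between, each on either strand. The first 3 sites hold an AP-1 core, and the SEMA5A site also holds a near-match to the HNF4 core. The LHFPL2 site holds only a near-match. These 7 do not stand for all sites, of which 61.3% hold neither an AP-1 core nor such a near-match. The MAP3K14 site is the strongest with the exact HNF4 core, the ELF3 site the strongest with exact HNF4 and AP-1 cores, and the ETNPPL site the strongest with the spaced AGGTCA repeat.
SEMA5A intron peak, chr5:9046750-9046949, plus strand: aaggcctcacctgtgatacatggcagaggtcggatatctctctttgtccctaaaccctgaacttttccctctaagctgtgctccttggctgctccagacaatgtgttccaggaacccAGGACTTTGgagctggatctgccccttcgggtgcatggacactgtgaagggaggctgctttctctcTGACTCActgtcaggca
PEMT intron peak, chr17:17484138-17484337, plus strand: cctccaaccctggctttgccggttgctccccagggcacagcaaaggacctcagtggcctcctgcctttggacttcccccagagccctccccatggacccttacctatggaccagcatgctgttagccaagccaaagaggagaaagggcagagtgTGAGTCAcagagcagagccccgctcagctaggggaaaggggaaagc
DYSF distal peak, chr2:71941002-71941201, plus strand: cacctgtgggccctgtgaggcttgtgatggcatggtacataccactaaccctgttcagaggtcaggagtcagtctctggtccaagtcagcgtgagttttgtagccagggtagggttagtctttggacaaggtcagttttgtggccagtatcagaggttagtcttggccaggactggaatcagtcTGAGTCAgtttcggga
LHFPL2 intron peak, chr5:77907038-77907237, plus strand: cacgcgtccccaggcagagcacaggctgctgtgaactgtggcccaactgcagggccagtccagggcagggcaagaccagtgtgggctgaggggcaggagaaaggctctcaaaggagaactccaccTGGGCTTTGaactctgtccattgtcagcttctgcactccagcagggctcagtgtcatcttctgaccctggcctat
MAP3K14 intron peak, chr17:43371270-43371469, plus strand: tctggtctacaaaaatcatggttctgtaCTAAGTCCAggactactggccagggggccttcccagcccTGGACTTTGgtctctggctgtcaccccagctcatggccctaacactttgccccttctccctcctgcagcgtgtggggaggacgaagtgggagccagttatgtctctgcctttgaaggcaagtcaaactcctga
ELF3 distal peak, chr1:202015931-202016130, plus strand: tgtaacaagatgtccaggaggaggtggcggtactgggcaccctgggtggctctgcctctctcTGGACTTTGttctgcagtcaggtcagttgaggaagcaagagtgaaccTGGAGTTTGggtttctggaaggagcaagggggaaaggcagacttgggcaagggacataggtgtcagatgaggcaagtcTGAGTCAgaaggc
ETNPPL distal peak, chr4:109651825-109652024, plus strand: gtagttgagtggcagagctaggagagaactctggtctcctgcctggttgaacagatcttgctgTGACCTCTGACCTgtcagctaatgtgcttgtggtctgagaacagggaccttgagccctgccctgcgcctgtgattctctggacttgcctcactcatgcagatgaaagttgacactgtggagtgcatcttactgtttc

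Of the motifs searched, the AGGTCA repeat with 1 base between had the largest ratio between the sites and their flanks, 8.67, but was in only 13 sites. The AP-1 core had the next largest ratio. The AP-1 core occurred in the central 200 bp of 5114 of the 21192 sites, which is 24.1% (23.6 to 24.7%). The same search found it in 3.07% of all 200 bp tiles of chromosomes 1 to 22, and in 3.47% of the flanking windows of the same length centred 2000 bp to either side of each site. The share at the sites was thus 6.95 times that of the flanks. The AP-1 core with its letters in reversed order, which has the same base composition, occurred in 5.20% of sites and 2.85% of flanks, a ratio of 1.82. The share was higher at the sites than in their flanks on each of the 22 chromosomes and ranged from 21.7% to 27.2% between chromosomes. Of these sites, 356 held 2 or more AP-1 cores.

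The HNF4 core was rare in its exact form and common in near-matches. The exact core CAAAGTCCA occurred in 241 sites, or 1.14% (1.00 to 1.29%), against 0.253% of genome tiles and 0.267% of flanks. Its reversed letters occurred in 0.175% of sites. Related forms behaved alike: CAAAGTTCA occurred in 179 sites (0.845%, against 0.258% of tiles) and CAAAGGTCA in 230 sites (1.09%, against 0.231% of tiles). Any of these 3 cores, called HNF4-type cores here, occurred in 641 sites or 3.02%, against 0.74% of tiles and 0.705% of flanks. With up to 1 mismatch to CAAAGTCCA, which takes in CAAAGTTCA but not CAAAGGTCA, the share was 18.4% (3896 sites), against 5.5% of tiles and 5.76% of flanks. The reversed letters with up to 1 mismatch gave 4.44% of sites and 4.76% of flanks.

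The half-sites within these elements differed from each other. AGTCCA, which is the 3' part of the HNF4 core, occurred in 25.4% of the sites (5374), against 8.28% of tiles and 8.90% of flanks, a ratio to the flanks of 2.85. Its reversed letters were less frequent at the sites (9.83%) than in the flanks (11.7%). The general nuclear receptor half-site AGGTCA, which CAAAGGTCA contains, occurred in 23.5% of sites, against 12.6% of tiles and 15.4% of flanks. Its ratio to the flanks was 1.53, and that of its reversed letters was 1.51. The AGGTCA repeat with 1 base between was found in 13 sites (0.0613%), against 0.00671% of tiles and 3 of 42384 flanking windows. Its ratio to the flanks was 8.67. Its reversed letters were found in 7 sites and 3 flanking windows, a ratio of 4.67. Repeats with 0, 2, 3, 4 and 5 bases between were found in 5, 4, 2, 2 and 1 sites. When each copy could be AGGTCA or AGTCCA, or one of the variants GGGTCA and AGTTCA, or else AGGGCA, a choice made after values were seen, the ratio to the flanks was 5.38 with 1 base between (210 sites). It was 4.89, 1.10, 4.32, 2.06, 3.47, 4.76, 5.07 and 3.93 with 0, 2, 3, 4, 5, 6, 7 and 8 bases between, so 1 base had the highest ratio by a small margin.

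Among the other factors, TEAD cores were more frequent at the sites and forkhead cores were less frequent. The TEAD core GGAATG occurred in 19.0% of sites (18.5 to 19.5%), against 10.6% of tiles and 10.9% of flanks, while its reversed letters differed little (5.62% of sites and 5.19% of flanks). The forkhead cores TGTTTAC and TATTTAC occurred in 3.78% of sites (800), against 7.28% of tiles and 5.55% of flanks. The reversed forkhead letters were also less frequent at the sites, 5.72% against 9.37%. Base composition moved with this result: the median GC content was 49.5% at the sites and 45.5% in the flanks, and its part in the forkhead share was not tested. The rule also barred FOXA1 peaks, so the forkhead share is given as a description. RUNX (TGTGGTT) occurred in 4.75% of sites, against 3.82% of tiles and 3.51% of flanks. ETS (CCGGAAG) occurred in 0.972%, against 0.476% of tiles and 0.795% of flanks, a ratio to the flanks of 1.22 that was below the 1.62 of its reversed letters. SP/KLF (GGGCGG), the core of GC-rich promoters, occurred in 6.71%, against 2.94% of tiles and 5.59% of flanks. CREB (TGACGTCA) occurred in 0.151%, against 0.0704% of tiles and 0.0873% of flanks. NFY (CCAAT) occurred in 19.0%, against 27.3% of tiles and 23.9% of flanks. The CTCF element, searched as CCA and AGGGGGC with 2 bases between, was present in 43 sites (0.203%, against 0.0369% of tiles and 0.0519% of flanks), and the NFI pair, searched as TTGGC and GCCAA with 5 bases between, in 4 sites (against 0.0124% of tiles).

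**Figure D1:**
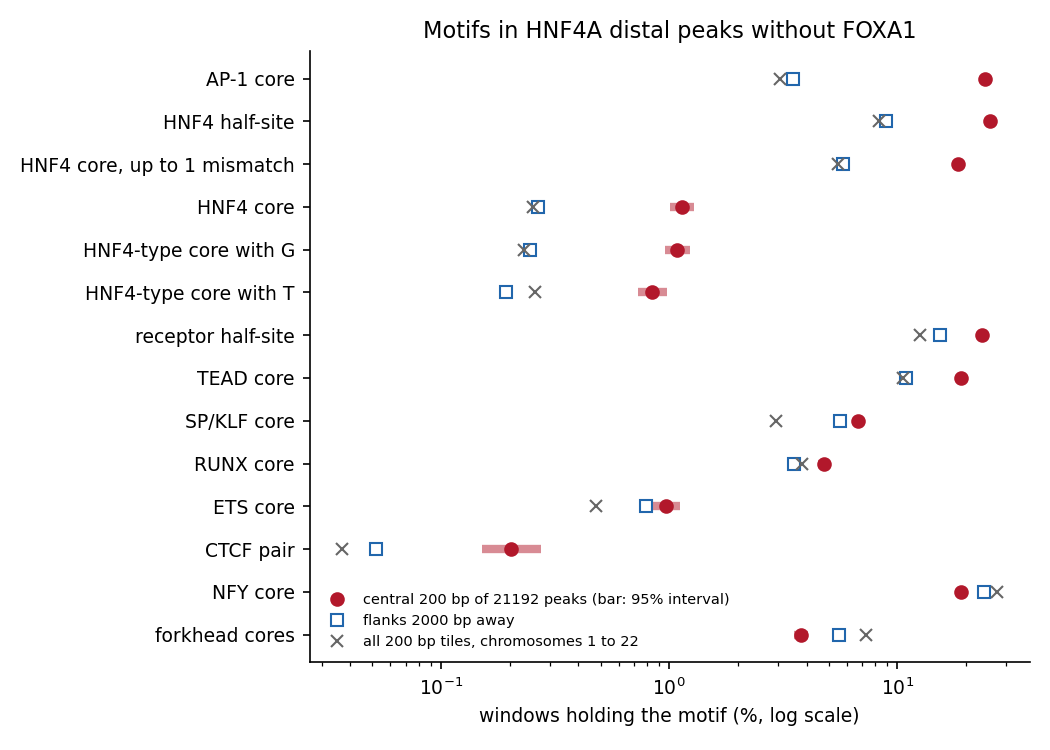
Share of 200 bp windows holding each motif (%, log scale) at the 21192 sites (red, with 95% Wilson intervals), in their flanks (blue squares) and in all 200 bp tiles of chromosomes 1 to 22 (crosses). The AP-1 core is at 24.1% in the sites and near 3% elsewhere, while the forkhead cores are the lowest of the sites' shares relative to the genome.

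The AP-1 share separated these sites from promoter and FOXA1 sites more than from the distal HNF4A peaks with FOXA1. AP-1 cores occurred in 7.94% of HNF4A peaks near starts without FOXA1, 16.2 percentage points fewer than at the distal sites (15.5 to 16.9), with the same direction on 22 of 22 chromosomes. They occurred in 7.80% of distal FOXA1 peaks without HNF4A, 16.3 points fewer (15.7 to 16.9), again on 22 of 22 chromosomes. In the FOXA1 list the midpoint was the only centre, and with midpoints for the HNF4A sites their AP-1 share was 24.6%. At distal HNF4A peaks with FOXA1 the AP-1 share was 27.7%, so the sites without FOXA1 were 3.53 points lower (1.59 to 5.54) and were higher on 5 of 22 chromosomes.

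At the smaller class of promoter peaks with FOXA1 the AP-1 share was 16.8%, and the HNF4-type share was 3.91%, with an interval of the difference from 3.16 points fewer to 0.590 points more at the sites. HNF4-type cores occurred in 1.70% of promoter peaks without FOXA1, 1.32 points fewer than at the distal sites (1.00 to 1.63), and in 3.59% of distal peaks with FOXA1, where the interval of the difference reached from 1.47 points fewer to 0.181 points more at the sites without FOXA1. AGTCCA occurred in 15.6% of promoter peaks without FOXA1 and in 20.9% of promoter peaks with FOXA1. In distal peaks with FOXA1 its share was 24.95%, within 0.405 points of the sites (interval -1.56 to 2.29). Forkhead cores occurred in 7.56% of distal HNF4A peaks with FOXA1 and 18.2% of distal FOXA1 peaks without HNF4A, 3.78 and 14.4 points above the sites. FOXA1 peaks define these 2 classes and were barred from the sites, so the forkhead differences are descriptions only. TEAD cores were not particular to the sites. They occurred in 21.5% of distal HNF4A peaks with FOXA1, and the sites differed from these by -2.52 points (-4.38 to -0.749). They occurred in 19.1% of promoter peaks with FOXA1, 9.84% of those without and 11.8% of distal FOXA1 peaks without HNF4A. SP/KLF cores occurred in 45.6% of promoter peaks without FOXA1, 38.9 points more than at the sites. In distal peaks with FOXA1 their share was 2.01%, 4.70 points below the sites (3.94 to 5.32). The sites were higher on 20 of 22 chromosomes. Promoter peaks without FOXA1 also differed in base composition, with a median GC content of 65.0% and 15 CpG dinucleotides per window against 2 at the sites.

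AP-1 cores and AGTCCA were denser around the peak centres than 500 bp away. AP-1 cores numbered up to 30.1 per 1000 peaks per 20 bp bin, against 4.32 in the outer bins. In the 2 bins at the centre the number was 27.0, slightly under the highest bin. AGTCCA reached 39.8 per 1000 peaks per bin, against 9.76 in the outer bins, and had its highest bins at the centre. Within 100 bp of the centre, the median distance was 38.5 bp for HNF4-type cores and 39 bp for AGTCCA. It was 47.5 bp for AP-1 cores, 47 bp for SP/KLF cores and 50 bp for TEAD cores, and evenly spread cores would give about 50 bp. Forkhead cores did the opposite, with 3.19 per 1000 peaks per bin at the centre and 5.71 in the outer bins. SP/KLF cores numbered 9.39 at the centre and 6.31 in the outer bins, and TEAD cores 21.8 and 12.1.

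**Figure D2:**
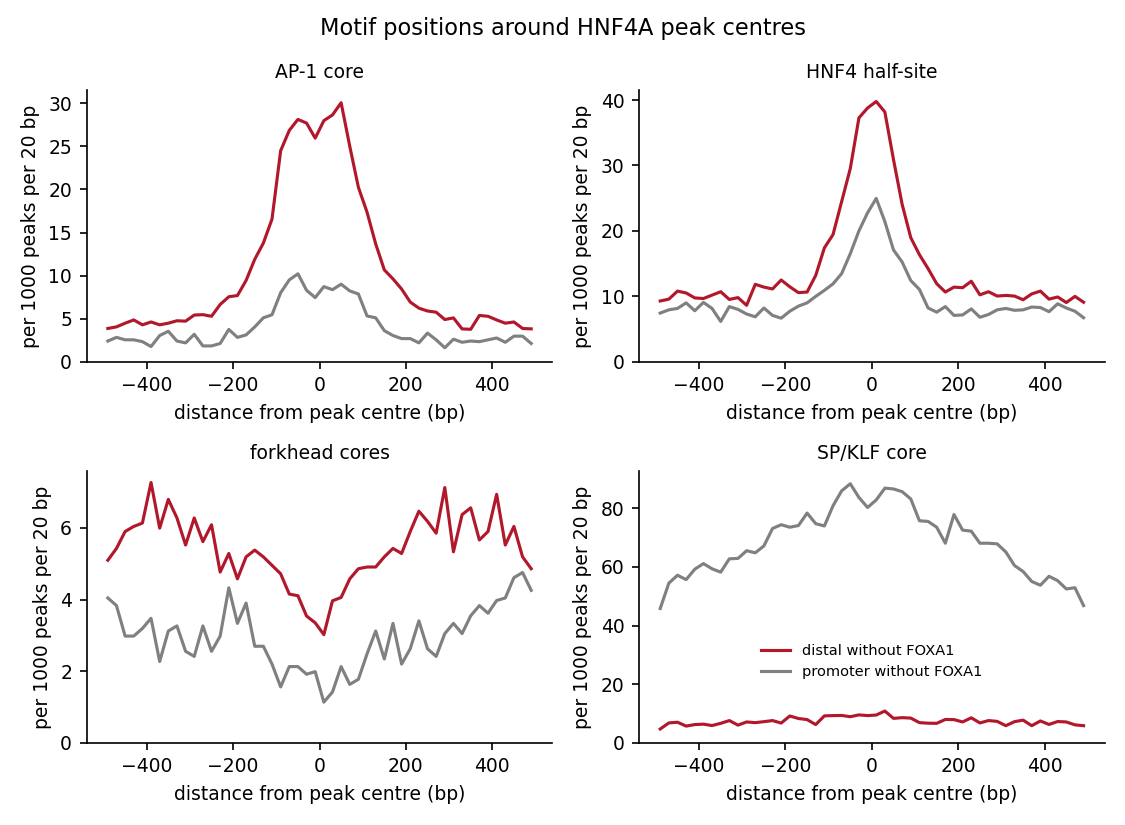
Motif occurrences per 1000 peaks per 20 bp bin against distance from the peak centre (bp), for the distal sites without FOXA1 (red) and the promoter peaks without FOXA1 (grey). AP-1 cores and HNF4 half-sites (AGTCCA) are denser near the centre than 500 bp away, reaching 30.1 and 39.8 at the sites. AGTCCA has its highest bins at the centre, and the highest AP-1 bin lies off it. Forkhead cores dip at the centre.

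The AP-1 share was compared between sites with and without HNF4 cores. AP-1 cores were present in 21.7% (18.7 to 25.04%) of the 641 sites with an HNF4-type core and in 24.2% of those without, which lies inside that interval. With the near-match rule, which was added after values were seen, the shares were 20.6% (19.4 to 21.9%) of sites with an HNF4 core and 24.9% (24.3 to 25.6%) of those without. Both an AP-1 core and an HNF4-type core were found in 139 sites. Their closest pair lay a median of 52 bp apart (quartiles 29.5 to 78.5 bp). An AP-1 core alone was found in 4975 sites, an HNF4-type core alone in 502, and neither in 15576 sites, or 73.5%. Neither AP-1 nor a near-match to the HNF4 core was found in 12986 sites, or 61.3%. TEAD cores occurred in 16.7% of sites with an AP-1 core and in 19.7% of those without.

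A search without chosen motifs ranked the AP-1 core first, followed by parts of an extended AP-1 core and words that share letters with the HNF4 half-site. Words of 7 letters were ranked on odd chromosomes by their ratio between the central 100 bp of the sites and the flanks, and described on even chromosomes, which hold 9837 sites. The AP-1 core was the first word, with 1361 occurrences on even chromosomes against a mean of 165 per flank, a ratio of 8.25. Of the next 9 words, 5 were parts of an extended AP-1 core, such as ATGAGTC (5.29) and GACTCAC (5.36). The other 4 contained GTCC, a part of the HNF4 half-site, with GAGTCCA at 4.71, AGTCCAA at 4.97, CAGTCCA at 3.95 and AGAGTCC at 3.38. When sites with an AP-1 core were left out, the first 4 words contained AGTCC, with GAGTCCA at 4.95 and AGTCCAA at 5.67.

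In percentage points, the near-match to the HNF4 core and AGTCCA differed more between weak and strong peaks than AP-1 cores did. Both were added after values were seen, and the rarer exact and HNF4-type cores differed less than AP-1 cores. The authors' peak caller gave each site a fold enrichment over background and a -log10 q-value. The median fold enrichment was 5.80 (quartiles 4.78 to 7.57, from 1.40 to 41.8), and the median -log10 q was 9.85 (6.48 to 16.3). Promoter peaks without FOXA1 had a median fold enrichment of 6.12 and distal peaks with FOXA1 of 5.78. The sites were placed in 5 equal groups by -log10 q. The HNF4 core with up to 1 mismatch occurred in 14.3% (13.3 to 15.4%) of the weakest group, then 16.9, 18.5 and 18.3%, and in 23.8% (22.6 to 25.1%) of the strongest. AGTCCA occurred in 20.8, 24.1, 25.1, 26.1 and 30.7%. In the same order, the exact HNF4 core occurred in 0.826, 1.01, 1.30, 0.991 and 1.56%. HNF4-type cores occurred in 2.45, 2.74, 3.23, 3.16 and 3.54%. AP-1 cores occurred in 22.3% (21.1 to 23.6%) of the weakest group, then 23.4, 25.9 and 23.8%, and in 25.3% (24.03 to 26.6%) of the strongest. For AP-1 cores, the intervals of neighbouring groups overlapped, and those of the weakest and strongest did not. TEAD cores stayed between 18.6 and 19.5%. Peak width also differed between these groups, from a median of 207 bp in the weakest to 393 bp in the strongest, and its part was not tested. The median fold enrichment was 5.90 for sites with an AP-1 core, 5.75 without one, and 6.03 with an HNF4-type core, with broadly overlapping quartiles.

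**Figure D3:**
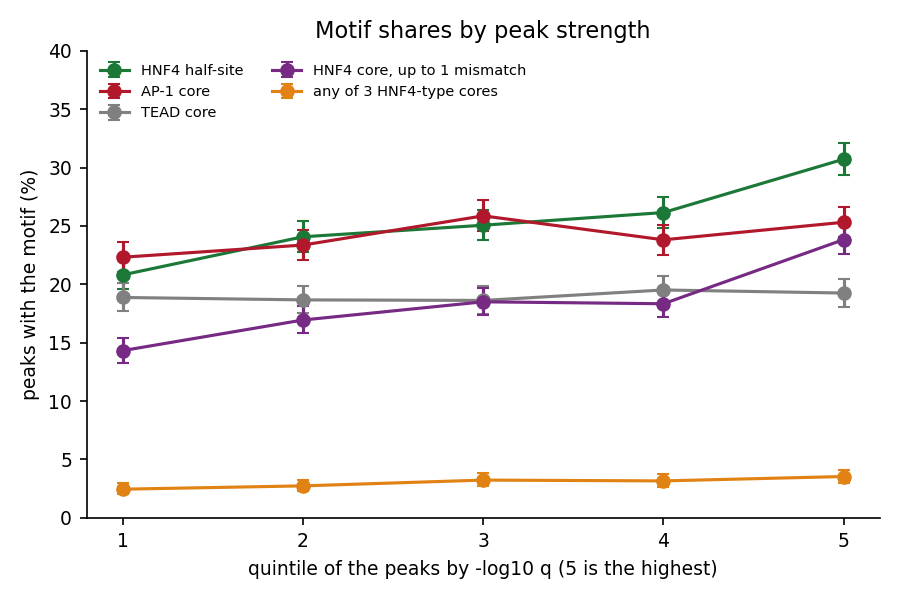
Share of sites (%) holding each motif in 5 equal groups of the sites ordered by -log10 q, group 5 being the strongest, with 95% Wilson intervals. The HNF4 half-site AGTCCA goes from 20.8% to 30.7%, while AP-1 cores stay between 22.3% and 25.9% and TEAD cores between 18.6% and 19.5%.

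The sites lay in introns and close to genes more often than the genome as a whole. Introns held 63.4% of them (62.8 to 64.1%), against 69.4% (67.5 to 71.4%) of distal HNF4A peaks with FOXA1. Of all known bases more than 1000 bp from a start, introns held 57.5%. The space between genes held 30.3%, against 38.8% of such bases. Exons held 6.27%, against 3.70%. The median distance to the nearest start was 8148 bp (quartiles 3443 to 18794 bp, largest 269364 bp). Sites up to 2500 bp from a start made up 17.5%, against 9.34% of bases, and sites from 2.5 to 10 kb 38.9%, against 28.8%. Distal HNF4A peaks with FOXA1 had shares of 15.8 and 35.3% at these distances. Only 1.36% (289 sites) were more than 100 kb away, against 6.95% of bases. AP-1 cores occurred in 20.4% of the sites up to 2500 bp from a start, in 23.95% from there to 10 kb, in 25.7% from 10 to 50 kb, in 24.9% from 50 to 100 kb and in 30.4% (25.4 to 36.0%) beyond that. SP/KLF cores went the other way, from 11.04% to 2.42% over the same bins. The values just inside and outside the limit on distance were alike: the 341 sites within 100 bp past it had a median fold enrichment of 6.08, and the 408 peaks within 100 bp before it 5.97.

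**Figure D4:**
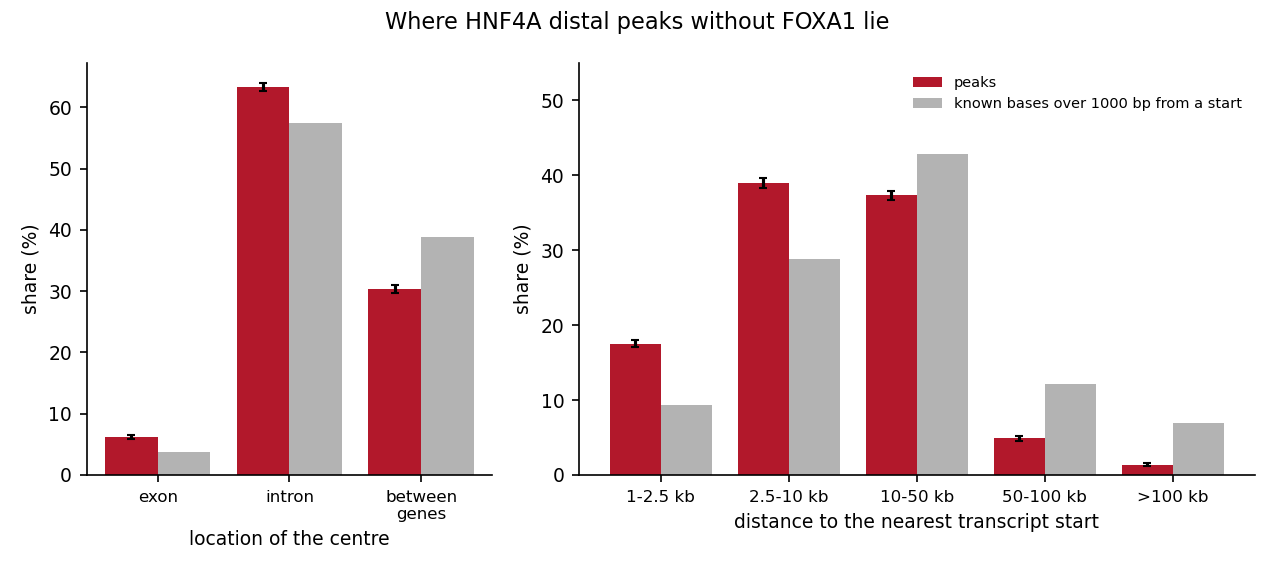
Share of sites by location of the centre (left) and by distance to the nearest transcript start (right), in red with 95% Wilson intervals, beside the share of known bases more than 1000 bp from a start (grey). Introns hold 63.4% of the sites against 57.5% of bases, and 1.36% of the sites lie beyond 100 kb against 6.95% of bases.

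Distances from the sites to FOXA1 peaks, which the rule kept above 0, are given without a background, since none was computed. The nearest FOXA1 peak was a median of 6961.5 bp away (quartiles 2258 to 18229 bp). It was within 1000 bp of 2906 sites (13.7%) and within 100 bp of 433 sites (2.04%). These 433 sites had a median fold enrichment of 5.55, as did the 625 distal HNF4A peaks that shared less than 100 bp with a FOXA1 peak. AP-1 cores occurred in 15.9% (12.8 to 19.7%) of the sites with FOXA1 within 100 bp. The share was 20.8% with FOXA1 within 1000 bp, a group that includes these sites. It was 25.6% (24.7 to 26.5%) at sites with none within 10 kb. At distal HNF4A peaks that overlapped FOXA1, which are not among the sites, it was 27.7%. Forkhead cores occurred in 4.58% of sites with FOXA1 within 1000 bp and in 3.65% of the others.

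Few of the sites were overlapped by peaks of the FOXA1 variants. The rule barred FOXA1 overlap, which limits all 3 shares. FOXA1nhaa peaks overlapped 657 sites, or 3.10% (2.88 to 3.34%), FOXA1rraa peaks 192 (0.906%) and FOXA1dbd peaks 66 (0.311%). The variant lists are not separate measurements throughout: of the 71202 rows of the rraa list, 41253 are also rows of the nhaa list and 22336 of the FOXA1 list, by coordinates and name, and 121 of the 192 rraa rows at the sites are nhaa rows. At distal HNF4A peaks with FOXA1 the shares were 47.9, 49.3 and 46.6% for nhaa, rraa and dbd. Of the variant peaks outside FOXA1 peaks, 1.16% of 43502 for nhaa, 1.19% of 9241 for rraa and 5.67% of 1094 for dbd overlapped a site. Forkhead cores occurred in 5.18% (3.73 to 7.14%) of the sites overlapped by nhaa, in 8.33% (5.19 to 13.1%) of those overlapped by rraa and in 3.70% (3.45 to 3.97%) of the 20405 sites overlapped by no variant. Of the 66 sites overlapped by dbd, 2 held one, or 3.03% (0.835 to 10.4%). AP-1 cores occurred in 23.1% of the sites overlapped by nhaa, 22.4% by rraa, 31.8% by dbd (21.8 to 43.8%) and 24.1% by no variant. The strongest site overlapped by nhaa, in an intron of STK24, a serine/threonine kinase gene, had a fold enrichment of 31.6. The strongest overlapped by dbd, in an intron of LHFPL2, had 14.8, and the strongest overlapped by rraa, in an intron of GARRE1, had 10.9.

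Of the 8 strongest rows by -log10 q, 7 lay in introns. The SEMA5A site at chr5:9046602-9047361, in a gene for a semaphorin guidance protein, had a -log10 q of 173.3 and a fold enrichment of 32.5. The LHFPL2 site at chr5:77906861-77907355 had a fold enrichment of 35.2. The PEMT site at chr17:17484044-17484511, in the gene for an enzyme of phosphatidylcholine synthesis, and a site in SNAP29, a membrane fusion gene, at chr22:21239815-21240384 both had 35.5. A site between genes near CD58, a cell adhesion gene, at chr1:117051526-117052141 had 32.0. A peak in an intron of STK3, a kinase of the Hippo pathway, was deposited as 2 pieces that share 1 value, 35.7. Of these 8 rows, 2 held an AP-1 core and 3 a near-match to the HNF4 core. The strongest site with the exact HNF4 core, in MAP3K14 at chr17:43370869-43371559, was the 92nd in order of -log10 q with a fold enrichment of 21.6. The ELF3 site with both cores was the 155th and had 21.7, the ETNPPL site was the 311th and had 18.8, and the DYSF site, 103193 bp from any start, was the 131st and had 16.8. The strongest with a forkhead core, at chr7:106300223-106300899 in an untranslated exon of CCDC71L, was the 20th and had 27.3, with a FOXA1 peak 154 bp away.

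Among the listed genes, YAP and TEAD targets, actin cytoskeleton genes and fibroblast matrix and surface genes had the sites nearby more often than liver genes did. A gene was counted when at least 1 site centre lay within 50 kb of its 5' end, which was so for 11412 of 19222 protein-coding genes, or 59.4%. The median over all genes was 1 site per window. Among 22 known target genes of YAP and TEAD, 20 were counted (90.9%, median 4 sites), among 25 actin cytoskeleton genes 22 (88%, median 3) and among 28 fibroblast matrix and surface genes 24 (85.7%, median 2.5). Nuclear receptor genes were counted in 16 of 22 cases (72.7%) and fatty acid oxidation genes in 17 of 24 (70.8%). Liver genes known as HNF4A targets were counted in 21 of 35 cases (60%), close to the share over all genes, and epithelial junction and keratin genes in 13 of 25 (52%). These are counts beside the background and were not tested, and neighbouring genes can share a site.

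The liver genes with sites included the APOA1, APOC3 and APOA4 cluster of lipoprotein genes. They shared a site at chr11:116709438-116709816, in an intron, with a fold enrichment of 18.0 and a near-match to the HNF4 core. CYP27A1, an enzyme of bile acid synthesis, had 1 site at a fold enrichment of 19.1. No site lay within 50 kb of ALB, TTR, CYP7A1, PCK1, TAT, MTTP or the fibrinogen genes FGA, FGB and FGG. In the oxidation list the strongest site lay between genes, 46.49 kb from the 5' end of CPT1A. This gene encodes the entry enzyme of mitochondrial fatty acid oxidation. The site had a fold enrichment of 17.4 and a near-match to the HNF4 core. CDH1, EPCAM, CLDN1 and OCLN, which encode junction and adhesion proteins of epithelia, had none, while KRT19, a keratin gene, had 4 with a highest fold enrichment of 17.7.

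The number of sites per gene varied widely within the lists. Of the 28 fibroblast genes, 16 had 2 or more sites, 8 had 1 and 4 had none. SPARC, a matrix glycoprotein gene, had 14, PDGFRB 10, FBLN1 9, PDGFRA 8 and COL1A1 6. The strongest PDGFRA site, in an intron 3.999 kb from the 5' end, had a fold enrichment of 20.5, and the strongest FBLN1 site had 19.9. COL1A2, COL3A1, COL5A2, ELN, FAP, FN1, LOX and LUM had 1 each, and THY1, DCN, POSTN and MMP2 had none. Among actin genes, ACTN4 had 12, MYH9 11 and ACTN1 8, and the strongest site was near ACTG1, the cytoplasmic gamma-actin gene, with a fold enrichment of 22.7 and an AP-1 core. Among YAP and TEAD targets, ARHGEF17 had 12, AMOTL2 9 and NUAK2 7, while CCN2 had 1 and CCN1 5. HNF4A itself had 1 site.

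**Figure D5:**
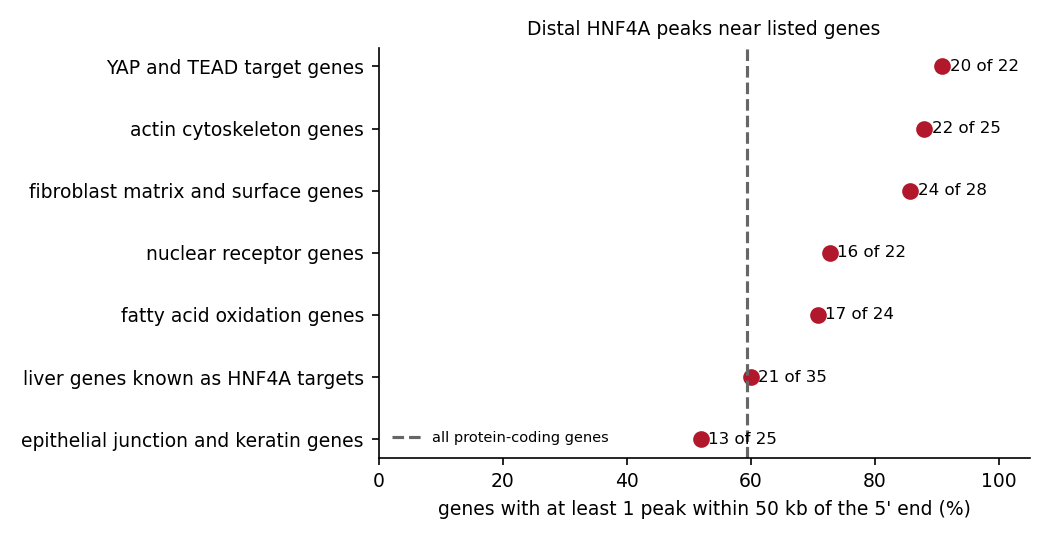
Share of the genes of each list with at least 1 site within 50 kb of the 5' end (%), with the count beside each point and the share over all protein-coding genes as a dashed line at 59.4%. YAP and TEAD targets, actin genes and fibroblast matrix genes are at 90.9, 88 and 85.7%, and liver genes at 60%.

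The number of sites differed between stretches of the genome. The median distance to the nearest other site was 17046.5 bp, and 37.8% had another within 10 kb. Windows of 100 kb with 5 or more sites numbered 753 of the 10371 that held any, and they held 21.7% of the sites. The densest, with 17 sites, contained TWIST2, a transcription factor gene of mesenchymal cells, at chr2:239700001-239800000. TWIST2 had 18 sites within 50 kb, the most of any gene, with fold enrichments from 4.12 to 24.004, and 1 of them held an AP-1 core. The window of B4GALT1, a galactosyltransferase gene, held 15, and those of SPARC and ACTN4 held 13 each. DUSP5, a phosphatase of ERK kinases, had 12 sites, 5 of them with a near-match to the HNF4 core, and LRP1 and STAT6, whose 5' ends lie close together, each had 13 sites within 50 kb. Density per Mb of sequence away from starts ranged from 4.53 on chromosome 4 to 16.7 on chromosome 22, with 16.5 on chromosome 17 and 16.3 on chromosome 19.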

How the data were processed

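The submitters' processing notes name Bowtie2 2.3.4.1, Picard, GATK 4.2.6.0, bedtools 2.27.1, MACS2 2.2.7.1, deepTools 3.5.0 and hg19, with no roles. Whether the authors called peaks on single or pooled libraries, and against which inputs, is not given in the sources used here. Every row name of the HNF4A list begins with the same prefix, HNF4AIP1. The deposited HNF4A list and those of the 3 FOXA1 variants have 10 columns in the narrowPeak layout. They give the authors' score, fold enrichment (a ratio), -log10 p-value, -log10 q-value and summit of each peak. The deposited FOXA1 list has 13 columns, of which the score is the only measurement and from which positions alone were used. The authors' values served for description and ranking inside the HNF4A list alone.

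From these lists, overlaps of at least 1 base, distances to GENCODE 44 transcript starts and motif searches on both strands of the GRCh37 reference were computed with Python 3.11.15, numpy 2.4.6 and pandas 2.3.3. The code was tested on simulated data. Shares have Wilson intervals from statsmodels 0.14.6. The members, motifs and gene lists were chosen with earlier results of these data known, and the AGTCCA half-site, the 1-mismatch core and the words in sites without an AP-1 core were added after values were seen. Named regions are the 8 with the highest -log10 q and the strongest with each core, FOXA1 variant overlap or distance over 100 kb. Named genes are the 12 with the most sites within 50 kb and the 3 per list with the strongest site. Some items that these rules pick are not reported here. Other listed genes were named after their values were seen. Sequences were planned as the central 120 bp and are printed as the central 200 bp searched. Of the rows, 334 (1.58%) share a peak name with another row or have their summit outside the row. They were kept, and left out in an alternative. Other alternatives changed the distance, the starts, the FOXA1 overlap, the peak threshold, the centre, the joining of near sites, the windows searched and the gene window.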

Additional observations from a re-analysis of the deposited data

How the results depend on the processing

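No paired analysis was possible because a single list stands for each construct, with no replicate numbers in it. Of 64 alternative values, 47 stayed within their interval or 1.5 times the count, 17 moved and 0 changed direction. A count, a median or an overlap share has no direction that could change, and every alternative used the same HNF4A list. The AP-1 share was 24.9% beyond 2500 bp from a start and 24.8% in the top 50% of the HNF4A list by -log10 q. It was 12.8% in the central 100 bp, and the HNF4 core was at 0.675% there, as a shorter window holds fewer words. The top 50% held 10368 sites with a median fold enrichment of 7.70, and 1 row per run of sites under 1000 bp apart gave 5.86. The intron share was 62.4% beyond 2500 bp, 61.7% with coding starts alone and 62.6% with no FOXA1 peak within 1000 bp. The FOXA1nhaa overlap was 2.37% with no FOXA1 peak within 1000 bp, 4.28% when a FOXA1 overlap had to cover 50% of the shorter peak, and 1.79% when the nhaa overlap had to. The share of genes with a site was 40.8% for 25 kb, 76.8% for 100 kb, 40.4% in the top 50% and 49.9% beyond 2500 bp. Leaving out pieces of peaks, an alternative chosen after seeing the data, moved none of the 7 values it was run on.

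With 1 list per construct, spread between libraries could not be measured, and read depth is unknown.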
